A study of Mus musculus with 18 samples.

Results

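Slow-twitch fibres build their sarcomeres from a set of troponins, myosin light chains, tropomyosin and Z-disc proteins that differs from the set used by fast-twitch fibres, and 9 genes of the slow set were followed here in soleus and extensor digitorum longus (EDL) of mice flown in space. The genes were chosen by name: the slow troponins Tnnt1, Tnni1 and Tnnc1, the light chains Myl2, Myl3 and Myl6b, the tropomyosin Tpm3, and the Z-disc proteins Myoz2 and Actn2. All 9 were on the array, among 12393 genes with a probe set of their own, and were read by 15 of 22626 tested probe sets. Tpm3 had 5 probe sets, Myl3 had 3 and every other gene had 1. Where a gene had several, the one with the highest mean over all arrays stood for the gene.

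Adult, age-matched male mice (strain given as C57/BL6 in the labels and as C57BL/N6 in the study's methods) were flown for 30 days aboard the Bion M1 biosatellite (BF), kept on earth in a copy of the flight housing (BG) or kept in a standard animal facility during the flight (FC). BF and BG mice ate paste food and FC mice standard chow, and BF mice were moved by road and air after landing before tissue was taken, so that flight, landing and transport cannot be told apart in BF. Whole soleus and whole EDL of 3 mice per group were hybridised to 18 Affymetrix arrays, 3 for each muscle and condition. The labels did not say which soleus and EDL came from the same mouse, and the notes of a pair of BF EDL arrays named other flights (Bion M2 and M3), which was taken as a slip since their titles and source put them in BF. Values are log2 signals after robust multi-array averaging (RMA), and p-values measure the spread between these 18 samples. In whole muscle, fewer slow fibres and less of an RNA per slow fibre cannot be told apart.

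In the thin filament, troponin C binds calcium, troponin I holds back the interaction of actin and myosin at rest, and troponin T fastens both to tropomyosin, the strand that lies along actin. Myl2 is the regulatory light chain and Myl3 the essential light chain of slow and ventricular myosin, and Myl6b is an essential light chain described in slow muscle and in non-muscle cells. At the Z-disc, alpha-actinin-2 (Actn2) crosslinks the actin filaments of neighbouring sarcomeres in all fibre types, and myozenin-2 (Myoz2, calsarcin-1) binds alpha-actinin and calcineurin in slow and cardiac muscle. Soleus is a postural muscle rich in slow fibres, and EDL is a fast muscle with few of them.

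The stretches upstream of 4 of these genes are shown because their RNAs behaved differently below: Tnni1 had the largest difference between the muscles, Myl3 stood for the light chains that followed the troponins, Myoz2 had the largest difference in flown soleus, and Myl6b had neither. Each is the 250 bases before the RefSeq start in GRCm38.p6, 5′ to 3′ on the gene's strand: Tnni1 at chr1:135799171-135799420 (plus strand, the upstream one of 2 starts), Myl3 at chr9:110763428-110763677 (plus), Myoz2 at chr3:123034988-123035237 (minus) and Myl6b at chr10:128498686-128498935 (minus). Capitals mark matches to the E-box, spelt CANNTG, to the MCAT motif, whose letters were CATTCC on either strand, and to the MEF2 and CArG motifs.
Tnni1: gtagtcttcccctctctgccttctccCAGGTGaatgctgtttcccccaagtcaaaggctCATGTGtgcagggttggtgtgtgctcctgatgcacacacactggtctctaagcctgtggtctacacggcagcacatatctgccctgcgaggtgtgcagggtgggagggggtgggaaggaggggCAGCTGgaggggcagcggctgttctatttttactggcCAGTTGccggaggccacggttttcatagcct
Myl3: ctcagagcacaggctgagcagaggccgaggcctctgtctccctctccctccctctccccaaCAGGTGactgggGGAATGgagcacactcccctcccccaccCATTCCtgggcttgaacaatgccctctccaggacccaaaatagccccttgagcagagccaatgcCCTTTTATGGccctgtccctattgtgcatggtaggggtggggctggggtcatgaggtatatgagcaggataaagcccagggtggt
Myoz2: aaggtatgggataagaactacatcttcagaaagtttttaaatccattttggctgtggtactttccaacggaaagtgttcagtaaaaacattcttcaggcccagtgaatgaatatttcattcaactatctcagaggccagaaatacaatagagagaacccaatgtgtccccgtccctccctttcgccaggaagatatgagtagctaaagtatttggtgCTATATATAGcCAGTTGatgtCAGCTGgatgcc
Myl6b: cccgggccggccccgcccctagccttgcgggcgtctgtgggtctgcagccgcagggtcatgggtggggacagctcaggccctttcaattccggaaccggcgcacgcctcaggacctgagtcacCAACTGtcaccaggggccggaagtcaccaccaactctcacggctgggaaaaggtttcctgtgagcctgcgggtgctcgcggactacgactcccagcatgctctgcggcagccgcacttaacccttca

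RefSeq gave 12 such windows for the 9 genes, and all 12 held an E-box, a short motif that 66.2% of all 32851 windows held. Myl3 carried 1 CArG match, at bases 166 to 175, and 2 MCAT matches. Of all windows, 1.47% held CArG and 12.6% MCAT, and the other slow gene window with MCAT was that of Tnnc1. Myoz2 carried the MEF2 match, at bases 218 to 227, a motif in 2.92% of all windows. The matches did not overlap each other, and Myl6b held a single E-box. A match describes letters in this window and was not tested as a binding site.

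The slow genes separated the muscles as labelled. An EDL array, FC replicate 3, stood apart in these genes, with the lowest signal in 8 of 9, and the main results that it moves are given with and without it. In BG mice, 8 of the 9 slow genes were higher in soleus than in EDL by 1.34 to 5.05 on the log2 scale, and limma called all 8 at an adjusted p under 0.05, where it called 16.1% of all probe sets in either direction. In FC mice the same 8 were called, against 15.1% of all probe sets. The muscle fibre genes Ckm, Acta1, Des, Mb and Ttn had means per array between 13.78 and 13.95 in every muscle and condition.

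Among the troponins, Tnni1 had the widest difference between the muscles. Its log2 signal was 13.23, 13.29 and 13.30 in the 3 BG solei, and 9.47, 7.44 and 7.76 in the 3 BG EDL. The groups lay far apart, with a difference of 5.05 ± 0.69 (SE, n = 3 per group; limma, adjusted p = 8.8e-05), and FC mice gave 5.10 ± 0.69 (limma, adjusted p = 9.4e-05). Tnnt1 differed by 4.49 in BG and 4.71 in FC, and Tnnc1 by 4.26 and 4.08. The spread lay in EDL, where Tnnt1 spanned 6.52 to 10.51 over the 9 arrays (8.33 to 10.51 without FC replicate 3), against 12.94 to 13.86 in soleus.

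Of the light chains, 2 were higher in soleus and Myl6b, read at a low signal, was not called. Myl3 was higher in soleus by 4.15 in BG and 4.46 in FC, and its other probe sets gave 4.08 to 4.40. Myl2, for the regulatory light chain, was higher by 3.36 and 3.35. The signal of Myl6b lay under the log2 value of 6 used as a filter on low signals, between 4.61 and 5.28 in the 9 solei and between 4.73 and 5.26 in the 9 EDL, ranges that overlap, although the 3 BG solei lay below the 3 BG EDL. Its difference was -0.38 in BG (limma, adjusted p = 0.0866) and -0.01 in FC (limma, adjusted p = 0.974), so a higher signal in the slow muscle was not detected with this probe set.

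Tropomyosin and the Z-disc genes were higher in soleus too. Tpm3 was higher in soleus by 3.68 in BG and 4.12 in FC, Myoz2 by 3.03 and 3.17, and Actn2, which fast fibres also use, by 1.34 and 1.45.

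**Figure D1:**
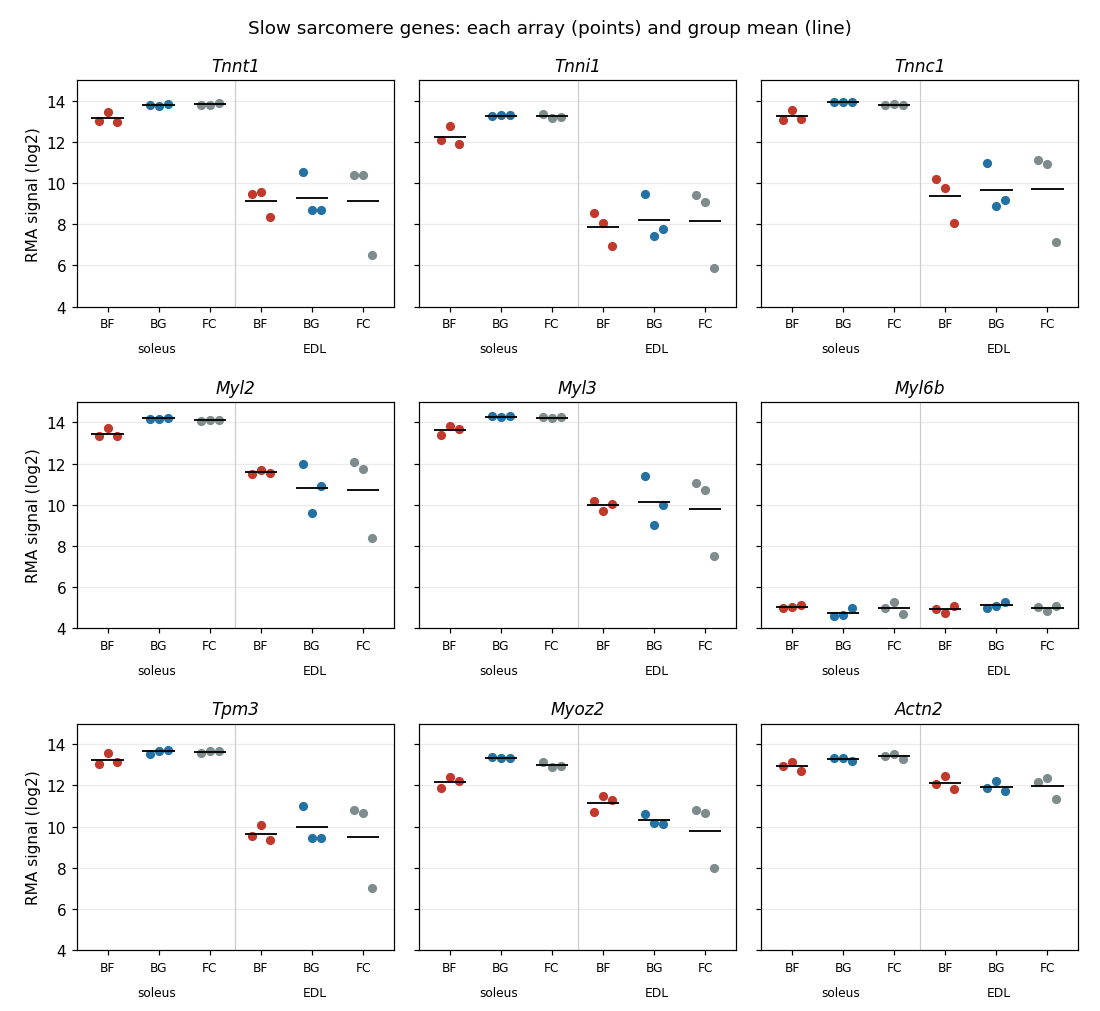
RMA log2 signal (y axis) of each of the 9 genes on each array, grouped by condition and muscle (x axis), with a line at each group's mean; 3 arrays per group. In 8 genes the solei lie above the EDL, BF solei lie below or at the lower edge of the ground solei, and the EDL points spread widely, over several log2 units in all of these but Actn2, with 1 FC EDL array lowest.

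After flight, the slow genes were lower in soleus by modest amounts. In the comparison of BF with BG, 8 of 9 had a negative log2 difference, between -1.18 and -0.36, and the median of the 9 was -0.66 where the median of all probe sets was 0.04. Against FC the same 8 lay between -0.99 and -0.38, with a median of the 9 of -0.60 against 0.01 over all probe sets. Both comparisons use the same 3 BF arrays and are set side by side for that reason.

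The troponins show the pattern array by array. Tnni1 was 12.08, 12.75 and 11.88 in the BF solei, against 13.15 to 13.34 in the 6 ground solei. Tnnt1 was 13.03, 13.45 and 12.94 in BF and 13.75 to 13.86 on the ground. Tnnc1 was 13.07, 13.54 and 13.12 in BF and 13.78 to 13.93 on the ground. In each of these genes every flown soleus lay below every ground soleus, and BF replicate 2 was the nearest to the ground mice.

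The light chains of slow myosin gave the same picture. Myl2 was 13.34, 13.71 and 13.33 in the BF solei, against 14.05 to 14.22 on the ground. Myl3 was 13.39, 13.84 and 13.66, against 14.21 to 14.30. Neither overlapped. Myl6b, at 5.01, 5.06 and 5.12 in BF, lay above the 3 BG solei (4.61, 4.63 and 4.98) and within the range of the FC solei (4.70 to 5.28).

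At the Z-disc, Myoz2 was 11.87, 12.43 and 12.22 in the BF solei, 13.36, 13.34 and 13.34 in BG, and 13.14, 12.88 and 12.93 in FC. This was the largest difference of the 9 genes against BG, a 2.26-fold lower signal, while against FC, whose own solei lay below those of BG, Tnni1 differed more. Actn2 was 12.95, 13.14 and 12.68 in BF, just under its ground range of 13.21 to 13.53. Tpm3 overlapped: 13.05, 13.56 and 13.15 in BF against 13.53, 13.69 and 13.74 in BG, although all 3 BF values lay below the FC values of 13.59 to 13.65.

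Counted over the set, 7 of 9 genes (all but Myl6b and Tpm3) had 3 BF solei below all 6 ground solei, an arrangement found in 10.6% of all probe sets. Below the 3 BG solei alone lay 7 of 9, against 18.1% of all probe sets, and below the 3 FC solei 8 of 9, against 19.8%. For a single gene, the exact two-sided permutation test of 3 arrays against 3 cannot give a p below 0.1.

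Whether these differences passed the test depended on which arrays set the error. The fit of all 18 arrays, with 1 error per probe set for both muscles, called 0 of 9 genes in soleus BF vs. BG and 0 of 9 in BF vs. FC (limma; 22.3% and 23.7% of all probe sets were called). At an unadjusted p under 0.05 it held 2 and 1 of the 9 in either direction, and those against BG included Myl6b, which was higher in BF. Ordinary contrasts without moderation called 0 in both, and the lowest adjusted p were 0.0814 and 0.106. The spread differed between the muscles. Among these genes the residual SD in EDL was 5.1 times that in soleus for Tnni1, 5.2 for Myoz2, 8.0 for Tpm3, and 9.2 to 10.7 for Tnnt1, Myl3, Tnnc1 and Myl2. Actn2 (2.5) and Myl6b (0.7) were nearer the median of all probe sets, 0.99, and 0.30% of all probe sets reached a ratio of 5. Leaving out FC EDL replicate 3 lowered the ratios to 3.2 for Tnni1, 1.7 for Myoz2, 3.6 for Tpm3, 4.9 for Tnnt1, 5.9 for Myl3, 6.7 for Tnnc1, 5.9 for Myl2 and 1.7 for Actn2, and left Myl6b at 0.7.

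Fitting the 9 soleus arrays alone called 6 of 9 genes lower against BG, where 10.7% of all probe sets were lower, and 7 of 9 against FC, where 12.7% were; at an unadjusted p under 0.05 the counts were 8 and 8. Myoz2 was lower by -1.18 ± 0.14 (SE; limma, adjusted p = 8.1e-04) against BG and by -0.81 (limma, adjusted p = 0.00299) against FC. For Tnni1 the values were -1.03 ± 0.19 (limma, adjusted p = 0.00505) and -0.99 (limma, adjusted p = 0.00441). Myl2, Tnnc1, Myl3 and Tnnt1 were lower by -0.73, -0.68, -0.66 and -0.64 against BG, with limma's adjusted p between 0.00339 and 0.00995, and by -0.64, -0.56, -0.60 and -0.67 against FC. Actn2 passed against FC (-0.49; limma, adjusted p = 0.0226) and not against BG (-0.36; 0.0801). Tpm3 passed in neither (-0.40 and -0.38; limma, adjusted p = 0.0631 and 0.077), and neither did Myl6b (0.32 and 0.07).

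Flown solei also varied more among themselves. In all 8 genes other than Myl6b the SD of the 3 BF solei exceeded both ground SDs, at 0.22 to 0.46 against 0.01 to 0.11 in BG and 0.02 to 0.13 in FC. A shared error across the 3 soleus groups is therefore a simplification here. The signals also lay near the top of the scale: the ground solei averaged 0.14 below the highest values of their arrays for Myl3, 0.26 for Myl2, 0.53 for Tnnc1 and 0.60 for Tnnt1, and no measurement here shows how far such signals still follow RNA amount.

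**Figure D2:**
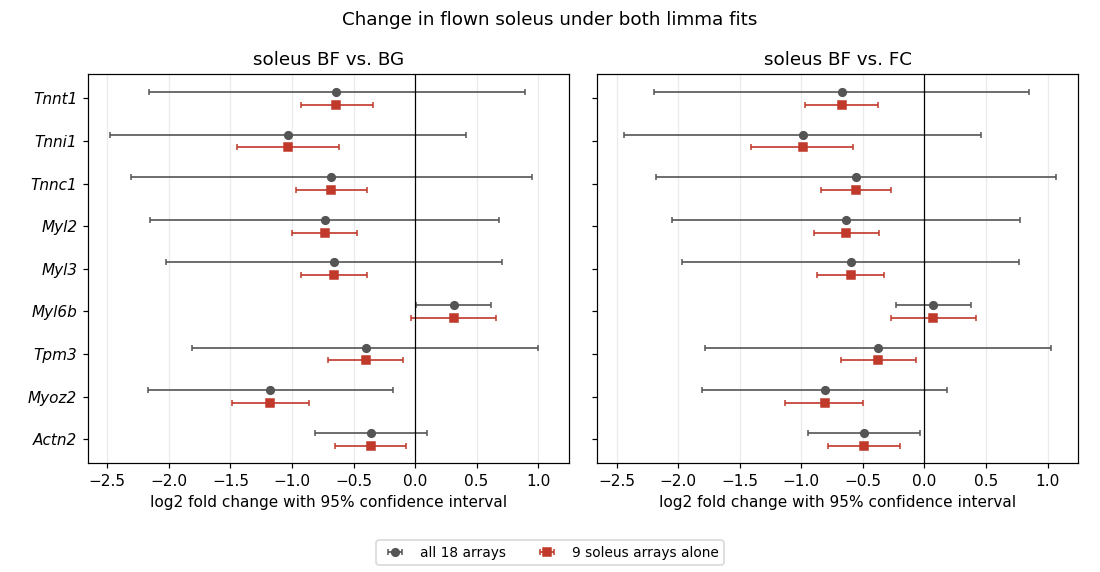
Log2 fold change of each gene in flown soleus (x axis, with 95% confidence interval), against BG on the left and FC on the right, from all 18 arrays (grey circles) and from the 9 soleus arrays alone (red squares). Estimates are the same in both fits. With 18 arrays, intervals of the troponins, Myl2, Myl3 and Tpm3 cross 0 in both comparisons, as do those of Myoz2 against FC and Actn2 against BG. The interval of Myl6b against BG lies above 0 in that fit. With soleus alone those of every gene but Myl6b stay below 0, though Tpm3 (both comparisons) and Actn2 (against BG) miss the adjusted threshold.

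Between the ground groups the slow genes were close. Soleus FC vs. BG gave values from -0.36 (Myoz2) to 0.24 (Myl6b), and limma called 0 of 9 in the 18-array fit (11.4% of all probe sets; 0 of 9 at an unadjusted p under 0.05, 0 by ordinary contrasts) and 0 of 9 with soleus alone (9.65%; 1 of 9 at an unadjusted p under 0.05).

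The 5 probe sets of Tpm3 differed in pattern, and are taken here in the order of the panels of the plot by probe set. The first and second, which have the widest difference between the muscles, were higher in soleus by 3.68 and 4.35 in BG mice and by 4.12 and 4.34 in FC mice. The third, the fourth and the fifth were higher by 1.84, 0.95 and 1.01 in FC mice. Their residual SD in EDL was 0.6 to 0.8 times that in soleus, against 8.0 and 8.4 times for the first and second (3.6 and 4.5 without FC EDL replicate 3, with 0.6 to 0.9 for the other 3). Tpm3 is transcribed from alternative starts and spliced into muscle and non-muscle forms, and which forms each probe set reads was not determined here.

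Those 3 probe sets with little spread in EDL were called in flown soleus in the 18-array fit. The third was 9.35, 10.14 and 9.77 in BF against 10.73, 10.81 and 10.17 in BG and 10.68 to 10.77 in FC. All BF values lay below all ground values, a change of -0.82 ± 0.19 against BG (limma, adjusted p = 0.00628) and -0.98 against FC (limma, adjusted p = 0.00141). The fourth changed by -0.47 (limma, adjusted p = 0.0106) and -0.58 (limma, adjusted p = 0.00252). The fifth fell against BG (-0.96; limma, adjusted p = 0.00225) but gave -0.30 against FC (limma, adjusted p = 0.272), and it was itself lower in FC than in BG soleus by -0.65 (limma, adjusted p = 0.035; 0.0584 with soleus alone). The second was called with soleus alone, at -0.62 against BG (limma, adjusted p = 0.0116) and -0.44 against FC (limma, adjusted p = 0.0443), and not in the 18-array fit.

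**Figure D3:**
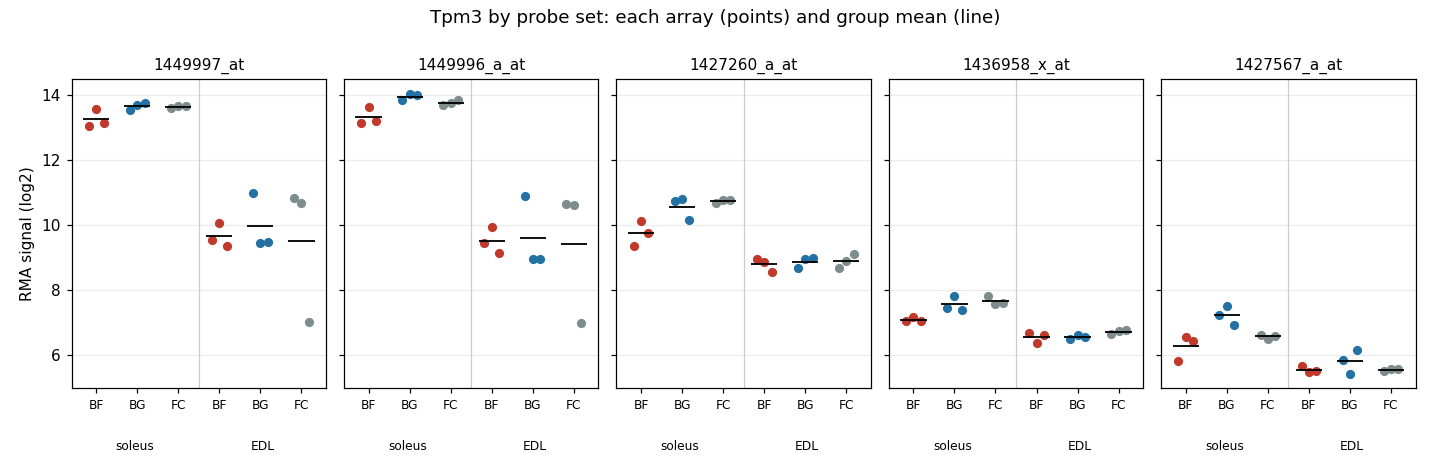
RMA log2 signal (y axis) of the 5 Tpm3 probe sets on each array, by condition and muscle (x axis), with a line at each group's mean; 3 arrays per group. In the first and second panels EDL lies far below soleus and spreads over several log2 units, with 1 FC array lowest at about 7; in the other 3 panels EDL is tight and lies nearer soleus.

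In EDL no slow gene was called in any comparison. Limma called 0 of 9 in BF vs. BG (0.385% of all probe sets), 0 of 9 in BF vs. FC (3.77%) and 0 of 9 in FC vs. BG (0.0354%), and at an unadjusted p under 0.05 the counts were 0, 1 and 0. EDL arrays alone gave 0 of 9 in each (0.164%, 2.46% and 0% of all probe sets), with the same counts of 0, 1 and 0 at an unadjusted p under 0.05, and ordinary contrasts called 0. The intervals were wide: Tnni1 in BF vs. BG was -0.38 ± 0.69, so that a change as large as the -1.03 of soleus was not detectable here.

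The 8 genes shared much of their variation between EDL arrays, a good part of it set by 1 array. FC replicate 3 was lowest in all 8, at 6.52 for Tnnt1, 5.87 for Tnni1, 7.15 for Tnnc1, 8.37 for Myl2 and 7.54 for Myl3, against 10.40, 9.44, 11.11, 12.09 and 11.04 in FC replicate 1. Averaged over the 8 genes after centring each, FC replicate 3 stood at -2.27, and BG replicate 1 and FC replicates 1 and 2 at 0.98, 0.98 and 0.82. Over the 9 EDL arrays the 28 pairs of genes had Pearson correlations from 0.46 to 0.99 with a median of 0.84, and 0.91 within groups. Without FC replicate 3 the range over 8 arrays was -0.20 to 0.99, with a median of 0.61, and 0.65 within groups. In soleus the range was 0.72 to 0.99 with a median of 0.94, and 0.76 within groups. These are descriptions over 9 arrays that share condition and dissection; Myl6b stood apart, with correlations of -0.74 to -0.23 in EDL and -0.52 to -0.18 in soleus.

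The slow genes did not all go together in flown EDL. In BF replicate 3, Tnnt1, Tnni1 and Tnnc1 were at 8.33, 6.92 and 8.08, below the other BF EDL (9.47 and 9.55, 8.56 and 8.04, 10.18 and 9.78). Myl2 (11.54) and Myoz2 (11.29) in that array lay within the values of the other BF EDL, as did Myl3 (10.06), while Tpm3 (9.36) and Actn2 (11.84) were lowest in that array, as the troponins were.

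Leaving out FC EDL replicate 3 changed what the FC comparison in EDL looks like. Without it, 7 of the 8 genes in BF vs. FC were negative, from -1.66 for Tnnc1 to 0.45 for Myoz2, and none was called (limma, adjusted p from 0.136 to 0.836); with it the 8 ranged from -0.37 to 1.35. The difference between the muscles in FC mice remained called in all 8 genes without that array, at 1.15 to 3.97. In soleus its removal left the differences as they were and narrowed the shared error: Myoz2 was then called against BG (limma, adjusted p = 4.6e-04) and against FC (limma, adjusted p = 0.00437), and Actn2 against FC (limma, adjusted p = 0.0388).

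**Figure D4:**
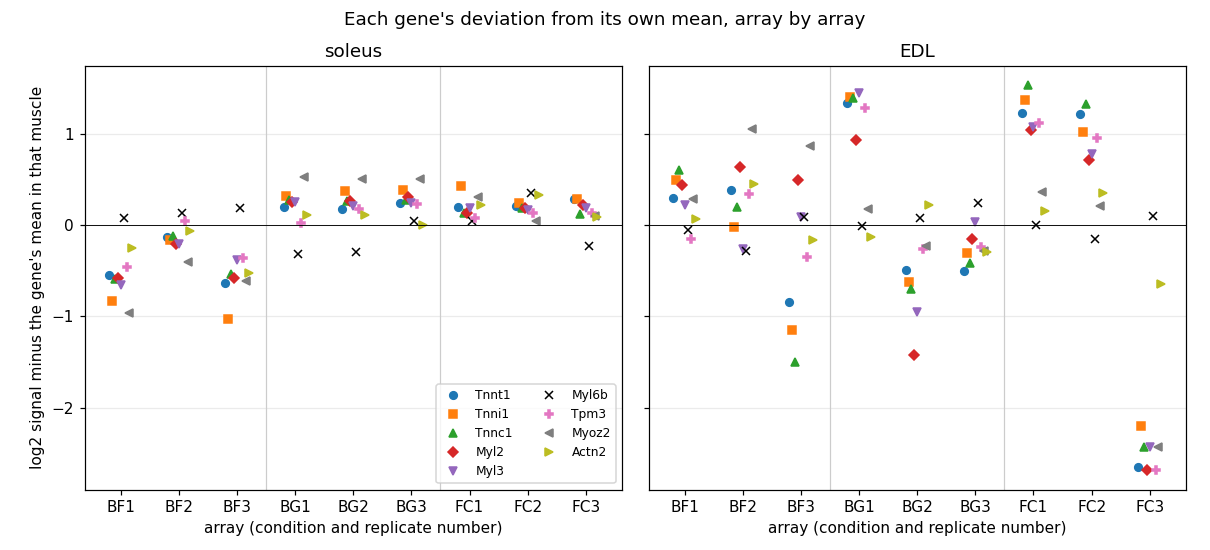
Log2 signal of each gene minus its own mean over the 9 arrays of a muscle (y axis), for each array named by condition and replicate number (x axis), soleus on the left and EDL on the right. In soleus the genes other than Myl6b are lowest in BF1 or BF3. BF2 lies between those arrays and the ground arrays in all of these genes but Tpm3, where it overlaps BG. In EDL the genes other than Myl6b are lowest in FC3, 6 of them are highest in BG1 or FC1, and Myoz2 and Actn2 are highest in BF2.

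Within EDL, the BF mean of Myoz2 lay above both ground means. Its signal was 10.71, 11.48 and 11.29 in BF, 10.60, 10.20 and 10.14 in BG, and 10.79, 10.64 and 8.0 in FC. All 3 BF arrays lay above all 3 BG arrays, which was so for 1 of the 9 genes and for 7.06% of all probe sets. The difference was 0.84 ± 0.47 against BG (limma, adjusted p = 0.511) and 1.35 against FC (limma, adjusted p = 0.127), and neither passed the test. Without FC EDL replicate 3 the values were 0.84 (limma, adjusted p = 0.0582) and 0.45 (limma, adjusted p = 0.352).

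The difference between soleus and EDL was next set beside that of the ground mice. In BF, 6 of 9 genes were called higher in soleus (limma; 11.7% of all probe sets were called), with Myl2 (1.89; limma, adjusted p = 0.0756), Myoz2 (1.01; limma, adjusted p = 0.174) and Myl6b short of the threshold. Without FC EDL replicate 3, Myl2 and Myoz2 were called too, 8 of 9 in all. Tnnt1 differed by 4.02, Tnni1 4.40, Tnnc1 3.90, Myl3 3.64, Tpm3 3.59 and Actn2 0.79. The change of this difference with flight was tested directly as an interaction, and 0 of 9 genes passed against BG (9.27% of all probe sets) or against FC (1.79%). At an unadjusted p under 0.05 the interaction held 2 of 9 in each, in either direction, and ordinary contrasts called 0. Those against BG included Myl6b, whose interaction value was positive. The largest interaction values were those of Myoz2, -2.02 ± 0.67 against BG (limma, adjusted p = 0.0646) and -2.16 against FC (limma, adjusted p = 0.109), followed by Myl2 at -1.47 in both. Without FC EDL replicate 3 the value of Myoz2 was called, at -2.02 (limma, adjusted p = 4.8e-04) and -1.26 (limma, adjusted p = 0.0369), while Tnnt1, Tnni1, Tnnc1, Myl3 and Tpm3 then gave positive values against FC, the smallest 0.30 for Myl3, none of them called.

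**Figure D5:**
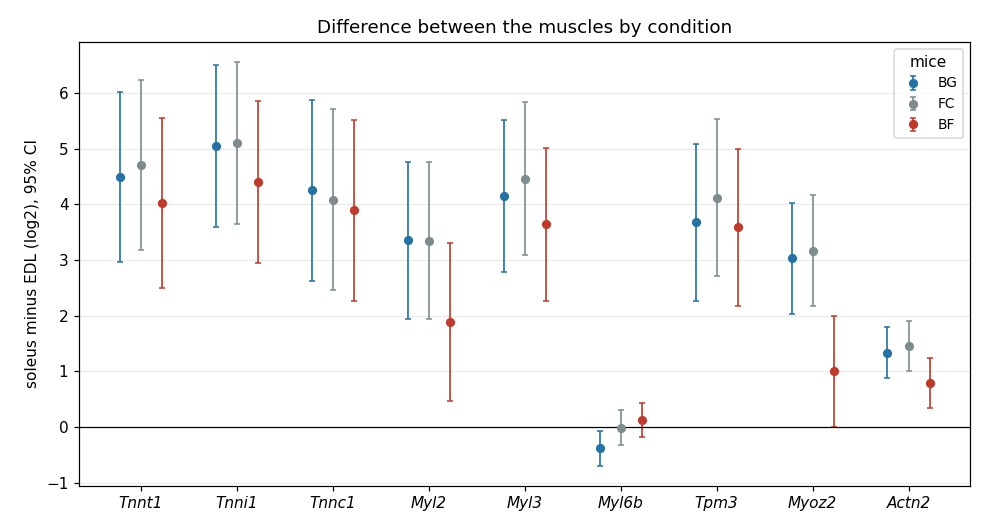
Soleus minus EDL difference on the log2 scale (y axis, with 95% confidence interval from the 18-array fit) for each gene (x axis) in BG, FC and BF mice. BF lies lowest of the conditions in all genes but Myl6b, most clearly for Myl2 (1.89) and Myoz2 (1.01); all intervals of the troponins overlap between conditions, and no gene's change between conditions passed the interaction test.

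The fast partners of these genes were called higher in part, with the widest changes at the Z-disc. Of 8 fast counterparts (Tnnt3, Tnni2, Tnnc2, Mylpf, Myl1, Tpm1, Myoz1 and Actn3), 3 rose in soleus BF vs. BG and 5 in BF vs. FC, where 22.3% and 23.7% of all probe sets were called in either direction. Actn3, the alpha-actinin of fast fibres, was 13.68, 12.75 and 13.55 in BF solei against 8.07 to 10.54 in BG, a rise of 4.43 ± 0.50 (limma, adjusted p = 2.9e-05). Myoz1, the fast partner of Myoz2, rose by 1.15 (limma, adjusted p = 6.8e-05), and Mylpf, the fast regulatory light chain, by 0.37 (limma, adjusted p = 0.0131). The fast troponins Tnnt3, Tnni2 and Tnnc2 gave 0.01, 0.16 and 0.10 and were not called against BG. Against FC, Tnni2 rose by 0.32 (limma, adjusted p = 0.013). Myoz1 read 11.92 to 12.12 in the ground solei. The fast genes other than Actn3 and Myoz1 read 13.26 to 14.09 there, near the array maxima of 14.27 to 14.53. How far such signals follow RNA amount was not tested, so sizes of change are not comparable between these genes. None of the 8 was called in EDL of flown mice.

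Other genes of slow fibres included 3 that changed several-fold. Of 10 measured, 4 fell in soleus BF vs. BG and 3 in BF vs. FC, with none rising in the 18-array fit; the share against FC was near the 23.7% of all probe sets called there. Pln (phospholamban, the brake on the slow calcium pump) fell by 2.44, Casq2 (calsequestrin-2, the calcium store protein) by 2.06, Sln (sarcolipin, another regulator of the pump) by 1.85 and Mb (myoglobin) by 0.30 against BG. The ground groups also differed in Pln, with 8.45, 8.61 and 8.65 in BG solei and 7.84, 8.13 and 7.48 in FC solei. The BF solei lay below both, at 5.97, 6.25 and 6.15. The median of the 10 was -0.51 against BG. With soleus alone 6 were lower and 1, Csrp3, higher against BG.

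Among 21 other Z-disc genes the direction was mixed, with 4 higher and 1 lower against BG, 3 higher and 1 lower against FC, and a median of 0.07 against BG. These counts were near the shares of all probe sets called, 22.3% and 23.7%. Pdlim3 rose by 1.28 and Flnc (filamin C) by 1.15, and Fhl3 by 1.07, all against BG, while Fhl2 fell against FC by 0.56. Of 31 regulators linked to the slow programme, 5 rose and 6 fell against BG, and 5 rose and 9 fell against FC, beside the same 22.3% and 23.7% of all probe sets. Of these Ppara fell by 2.06 and Rcan2, a calcineurin regulator, by 1.58, and the myogenic factors Myod1 and Myog rose by 2.24 and 1.81, all against BG. Myod1 was 8.95, 9.49 and 6.13 in the BF solei. Its BF replicate 3 lay within the BG range of 5.78 to 6.16 and below the FC solei (6.29 to 6.8). Of 9 developmental and cardiac sarcomere genes, embryonic myosin Myh3 fell by 2.41 and Mybpc3 rose by 0.48 against BG, a share near the 22.3% of all probe sets. Mybpc3 read 5.68 to 6.44 in the solei, close to the low-signal filter at log2 6. Against FC it was not called (0.25, limma adjusted p = 0.215).

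Genes whose soleus profile was most like the mean of the slow genes over the 9 soleus arrays were Ldhb (r = 0.981), Fxyd6 (0.979), Homer2 (0.978), Atp2a2 (0.976) and Adam17 (0.976). Ldhb is the heart-type subunit of lactate dehydrogenase and Atp2a2 the slow calcium pump. In EDL the closest were Zfp959 (r = 0.924), Usp42 (0.917), Epha4 (0.917), Khdrbs3 (0.906) and Lpl (0.900). This EDL ranking includes FC replicate 3, the array that stood at -2.27 in the slow genes, and none is given without it.

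Markers of other tissues also differed in flown soleus, counted first against BG, where 22.3% of all probe sets were called in either direction. Tendon and cartilage markers were lower in 5 of 6 against BG, and their summed signal was 1121 to 3377 in BF solei, 4301 to 6809 in BG and 4724 to 8498 in FC. Fat cell markers were higher in 3 of 4, with summed signals of 7091 to 15055 in BF and 7634 to 9701 in BG, and endothelial markers lower in 3 of 5, with sums of 787 to 992 and 1276 to 1368. Of 5 macrophage markers Cd68 alone rose, by 3.40, and of 3 Schwann cell markers 2 rose. Red blood cell markers gave 1 higher and 1 lower of 3, smooth muscle markers 1 lower of 5, and none of the 6 heart muscle markers was called. The red blood cell genes called, Hba-a1 (4.33 to 4.89 in the solei) and Slc4a1 (4 to 4.89), lay under the low-signal filter at log2 6. So did Myl7, Nppa, Nppb and Tnni3 of the heart muscle markers. Against FC, where 23.7% of all probe sets were called, tendon and cartilage markers were lower in 4 of 6. Fat cell markers were higher in 3 of 4 and endothelial markers lower in 4 of 5. Cd68 rose there too, Csf1r fell by 0.80 (limma, adjusted p = 0.0121), and 0 of 3 Schwann cell markers were called. The part of these markers in the slow genes' values was not tested. The muscle fibre markers differed by -0.02 (median, BF vs. BG). Of these 5, 1 was called against BG, Mb at -0.30 (limma, adjusted p = 0.0346), and 0 against FC. Their means per soleus array, 13.86 to 13.95, also lay near the top of the scale.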

How the data were processed

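Biotin-labelled RNA was hybridised by the authors to Affymetrix mouse expression arrays, normalised with RMA in Partek and deposited as log2 values, 1 column per array; the sources name no genome build. The arrays carry no read depth, and 3 arrays per group limit the precision. Of 22690 probe sets, 64 controls were left out; 20393 named 1 gene, 691 several and 1606 none in the platform annotation, and no value was missing. Array medians were 6.17 to 6.26, and arrays of a group correlated at 0.978 to 0.995. Limma 3.58.1 (R 4.3.3) fitted the 6 group means over 18 arrays, with lmFit and eBayes and Benjamini-Hochberg adjustment over 22626 probe sets; a gene was called at an adjusted p under 0.05. The script was tested on simulated data. Alternatives were each muscle alone, a replicate block, array weights, a trended prior, a filter at log2 6 in 3 arrays, the methods' thresholds (2-fold; unadjusted p in EDL), other probe sets, no moderation and each array left out. Members, lists and tests were chosen with earlier results of these data known. Text names the 9 genes, 8 fast counterparts, up to 4 called genes per list by size of change and the 5 most alike per muscle; values for other list genes were chosen after being seen.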

Additional observations from a re-analysis of the deposited data

Results flagged for a closer look

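None of the 9 slow genes is listed here. The genes below, named for comparison, changed differently with flight in soleus and in EDL by the direct test of the difference (limma interaction, soleus change minus EDL change).

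Of the fast Z-disc genes, Actn3 gave 4.44 ± 0.71 in the comparison with BG (adjusted p = 0.00281), while FC gave 3.68 (adjusted p = 0.013), and Myoz1 gave 1.13 ± 0.20 (adjusted p = 0.00493) and 1.09 (adjusted p = 0.0117). Other Z-disc genes were Pdlim3 at 1.08 (adjusted p = 0.0249) and 1.48 (adjusted p = 0.0108), and, with BG alone, Flnc at 1.31 (adjusted p = 0.0416) and Fhl3 at 1.19 (adjusted p = 0.0289).

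Of the slow fibre genes, Pln gave -2.41 ± 0.26 with BG (adjusted p = 8.7e-05) and -2.17 with FC (adjusted p = 4.7e-04), and Casq2 gave -1.98 ± 0.25 and -2.10 (adjusted p = 4.7e-04 in both). Sln passed with FC, at -3.88 ± 0.58 (adjusted p = 0.00379), and not with BG (-1.68; adjusted p = 0.0756). In EDL itself Sln was 1.59 higher in BF than in FC (limma, adjusted p = 0.0399; 0.0763 with EDL alone) and differed by -0.17 from BG (adjusted p = 0.909).

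Embryonic myosin Myh3 gave -3.08 (adjusted p = 0.0016) and -3.00 (adjusted p = 0.00379), and Mybpc3, read close to the low-signal filter, 0.79 with BG (adjusted p = 0.0235). Among regulators, Rcan2 gave -1.56 (adjusted p = 0.00302) and -1.28 (adjusted p = 0.0139), Ppara -1.43 (adjusted p = 0.0321) and -1.60 (adjusted p = 0.0444), and with BG alone Myod1 2.73 (adjusted p = 0.0362) and Myog 1.76 (adjusted p = 0.0129). For Myod1, BF soleus replicate 3 lay within the range of the BG solei. The macrophage marker Cd68 gave 3.06 (adjusted p = 0.00524) and 3.40 (adjusted p = 0.00583).

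Of the genes with a profile like the slow genes, Homer2 gave -1.69 (adjusted p = 0.00384) and -1.26 (adjusted p = 0.0306), and Fxyd6 -1.24 (adjusted p = 0.0344) and -2.10 (adjusted p = 0.00586). With BG alone, Adam17 gave -0.47 (adjusted p = 0.0462), Khdrbs3 -1.55 (adjusted p = 0.023) and Lpl -0.79 (adjusted p = 0.0218). Homer2, Fxyd6 and Adam17 were chosen for their profile in soleus, and Khdrbs3 and Lpl for theirs in EDL. The slow gene mean used for that choice was itself lower in BF solei. The same values enter the interaction, so the p-values of these genes are not an independent test.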

How the results depend on the processing

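The counts of slow genes called within a muscle were 0 in the 18-array fit, and these alternatives moved them. One muscle fitted alone gave 6 for soleus BF vs. BG and 7 for BF vs. FC. The replicate block, pairing equal replicate numbers, gave 1 for soleus BF vs. FC (Actn2) and 1 for the interaction against BG (Myoz2). Equal numbers were not taken as pairs, since the labels did not say which arrays share a mouse. Same-number pairs were compared by a correlation other than that of the whole log2 signals, which was 0.978 to 0.995 between arrays of a group. Within a muscle, 7 of 18 same-number pairs, all of different mice, correlated over 0.1 (range -0.13 to 0.30). Between the muscles of a condition, 6 of 9 did (range -0.05 to 0.37). Pairs of unequal number were not compared, so these values cannot decide whether the muscles shared mice. Tests between soleus and EDL in the 18-array fit treat the muscles as independent. The block moved no other count. Array quality weights gave 1 for soleus BF vs. BG and 1 for the interaction against BG, both Myoz2. The methods' thresholds gave 1 for EDL BF vs. FC (Myoz2). Counting any probe set gave 1 each for soleus BF vs. BG, BF vs. FC and FC vs. BG (Tpm3). With each of the 18 arrays left out, the counts ranged from 0 to 1 for soleus BF vs. BG, 0 to 2 for BF vs. FC, 0 to 1 for EDL BF vs. FC and 0 to 1 for both interactions; every rise came without FC EDL replicate 3 or FC EDL replicate 1. A difference between soleus and EDL was called in 5 to 8 genes in BF, 8 to 9 in BG and 8 in FC. The count of 9 came without BG soleus replicate 3 and added Myl6b, whose signal was lower in soleus. With soleus alone and each array left out, an alternative chosen after seeing the data, the counts were 6 to 8 against BG and 5 to 8 against FC. Per gene, no called value reversed; 126 uncalled values changed sign, and 5 calls were lost, all of Actn2 for soleus above EDL in BF. Myl6b was lost by the low-signal filter.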
